A study of Mus musculus with 12 samples.

Results

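Collagen chains are the polypeptides from which every collagen of the extracellular matrix is built, and each chain has a gene of its own. The chains were taken as the genes whose symbol reads Col, digits, a, digits, without pseudogenes, which gave 44 of the 54232 genes in the count table. A further symbol that begins in the same way, Col4a3bp, encodes a lipid transfer protein and was left out. By type there were 11 fibrillar chains, 6 basement membrane chains, 9 FACIT chains (fibril-associated collagens with interrupted triple helices), 6 beaded filament chains, 3 short chain network chains, 2 multiplexin chains, 4 transmembrane chains and 3 others. After a filter on low counts 26 of the 44 chains could be tested, among 12897 genes.

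SVR cells, a mouse angiosarcoma line derived from C57BL/6 islet endothelium and transformed with SV40 large T antigen and activated H-Ras, were grown under the skin of athymic nude mice. After 3 to 7 days of tumor growth the mice received a daily gavage of vehicle (control), of trametinib, which inhibits MEK, at 1 mg/kg, of cediranib, which inhibits the VEGF receptors, at 3 mg/kg, or of both drugs (combination) at these doses. From 3 tumors in each of the 4 groups, total RNA of the tissue was enriched with exome probes and sequenced. The tumor cells, the stroma and the skin of the host were all of mouse origin, so that reads from these sources cannot be told apart, nor can fewer cells of a type be told apart from less RNA per cell. All 12 tumors came from 1 cell line in hosts that lack mature T cells, and the time on treatment of each is not known, since the labels give gavage up to ulceration or a size limit while the study also ran an experiment with a common end.

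Collagen chains wind around each other in triple helices, either with copies of themselves or with partner chains, and are secreted mainly by fibroblasts in most soft tissues. Fibrillar collagens, led by type I and type III, give tissue its tensile strength. Type IV chains form the sheet-like network of basement membranes, on which endothelial and epithelial cells rest and which ensheathes blood vessels. FACIT collagens decorate the surface of fibrils, type VI forms microfibrils around cells, and the multiplexins type XV and type XVIII sit at the border between basement membrane and stroma.

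The libraries held 9478865 to 11666094 counts. Levels are given as CPM, counts divided by the TMM-normalized size of each library and brought to a common total, and differences between groups come from 1 quasi-likelihood model in edgeR fitted to all 12 libraries and to every gene tested. A chain was called where its Benjamini-Hochberg FDR was under 0.05 and its log2 fold change reached 1.5 in size. A library without a read of a gene allows a level of up to 3 counts, which was 0.251 to 0.349 CPM depending on the library and covers counting error only. The endothelial markers were present at modest levels (9 of 10 listed genes tested), with Cdh5 between 6.90 and 120 CPM and Pecam1 between 0.272 and 5.01 CPM over the 12 tumors. Of the 14 fibroblast markers 11 were tested, and their summed level lay at 4012 to 4726 CPM in control tumors, 5278 to 6719 after trametinib, 2834 to 4907 after cediranib and 5411 to 7518 after the combination. Most of this sum was Fn1 and S100a4. Among the other fibroblast markers Fbln1 lay at 82.9 to 761 CPM, Fstl1 at 86.7 to 549 CPM, Pdgfra at 7.99 to 39.9 CPM, Dcn at 0.937 to 22.6 CPM and Lum at 4.69 CPM or less. The markers did not move together. Fbln1 lay at 122 to 195 CPM in control and at 304 to 608 CPM after the combination, while Pdgfrb lay at 17.5 to 36.1 and 6.81 to 9.93 CPM and Fap at 5.02 to 17.4 and 3.64 to 4.64 CPM. In combination against control 1 of the 11 was called higher and 1 lower, beside 1.91% and 1.71% of all genes tested.

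The tumors differed in their level of epidermal markers. Krt14, a keratin of basal epidermal cells, lay between 266 and 2340 CPM in 6 tumors, which were control 1, cediranib 1, cediranib 3 and all 3 combination tumors. It lay between 0.335 and 2.36 CPM in the other 6. The summed level of the 44 collagen chains also separated these tumors, at 2442 to 6415 CPM in the 6 with Krt14 and at 8316 to 39630 CPM in the 6 without it. All 12 epidermal markers listed were tested, and their summed level was 2928 to 4426 CPM after the combination and 4.02 to 9.71 CPM after trametinib. For several chains the values of the 3 tumors outside the combination group that had the epidermal markers are therefore given, beside a model with an epidermal score as a covariate. That score was 4.91 to 5.38 after the combination, at most 4.66 after cediranib, at most 3.18 in control and at most -1.05 after trametinib. Score and group therefore cannot be fully told apart in comparisons of the combination with another group. Skeletal muscle markers summed to 16945 CPM in control 2, 23749 CPM in trametinib 2 and 1992 CPM in trametinib 3, and to at most 481 CPM in the other tumors, and their part in the results was not tested.

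Col4a5, a chain of basement membrane collagen, rose and Col18a1, the precursor of endostatin, fell in combination treated tumors. Col4a5 also rose with trametinib alone, and Col5a2, a chain that sets fibril diameter, fell with the combination against control. The fibrillar chains Col1a1 and Col1a2 were the most abundant transcripts of the family and varied by more than 18-fold between tumors, and neither was called by the quasi-likelihood test in any comparison.

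In trametinib treated tumors compared to control 1 of the 26 chains was called, Col4a5, beside 2.4% of all genes tested (0.977% higher and 1.43% lower). It was also the 1 chain with an FDR under 0.05 at any fold, where 6.12% of all genes had one. Cediranib against control gave 0 called chains, where 0% of all genes tested were. The smallest FDR of a chain there was 0.999 (edgeR, Benjamini-Hochberg), 4 chains (15.4%) had an unadjusted p under 0.05 against 4.32% of all genes tested, and 0 chains were called by the likelihood ratio test in edgeR or by DESeq2, which called 14 and 9 genes in all. The combination against control gave 3 called chains, Col4a5 upward and Col18a1 and Col5a2 downward, beside 3.61% of all genes tested (1.91% higher and 1.71% lower). At any fold 4 chains had an FDR under 0.05 there, against 9.98% of all genes. The likelihood ratio test called 7 chains, Col4a5, Col18a1 and Col5a2 with Col1a2, Col14a1, Col8a2 and Col15a1, beside 5.33% of all genes, and DESeq2 called 5, the same without Col14a1 and Col8a2, beside 4.74%. In combination compared to cediranib treated tumors 2 chains were called, Col4a5 upward and Col18a1 downward, beside 2.45% of all genes tested (1.29% higher and 1.16% lower). They were also the 2 chains under that FDR at any fold, where 7.68% of all genes were. The likelihood ratio test called 2 chains, beside 3.43% of all genes, and DESeq2 called 3, with Col15a1 added, beside 3.09%.

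In combination compared to trametinib treated tumors 0 chains were called by the quasi-likelihood test in edgeR, beside 0.675% of all genes tested (0.535% higher and 0.14% lower), and at any fold 0 chains had an FDR under 0.05, against 0.969% of all genes. The smallest FDR (Benjamini-Hochberg) of a chain was 0.0517, for Col16a1, and 14 of the 26 chains had an unadjusted p under 0.05, against 17.9% of all genes tested. The likelihood ratio test and DESeq2 each called 6 chains in this comparison, Col1a2, Col5a2, Col14a1, Col16a1, Col10a1 and Col17a1, beside 3.11% and 2.69% of all genes, so that the count of 0 rests on the choice of test. The interaction, the difference between the cediranib effects in trametinib exposed and other tumors, gave 0 called chains and 0% of all genes tested. There 3 chains (11.5%) had an unadjusted p under 0.05 against 7.05% of all genes tested, the smallest FDR was 0.611, for Col18a1 (edgeR, Benjamini-Hochberg), and the likelihood ratio test and DESeq2 called 0 chains, and 28 and 27 genes in all.

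**Figure D1:**
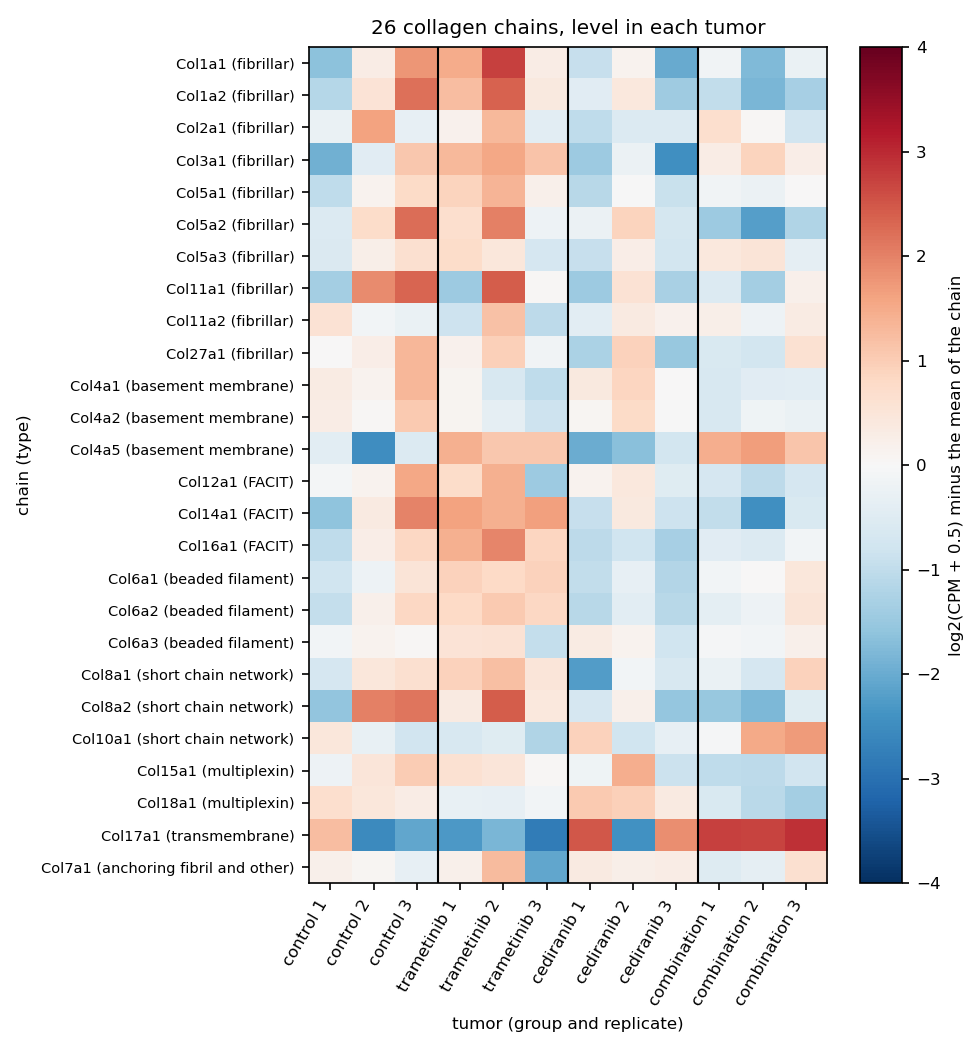
Level of the 26 tested collagen chains (vertical axis, with type) in the 12 tumors (horizontal axis, group and replicate). Color gives log2(CPM + 0.5) minus the mean of the chain over the 12 tumors, red above and blue below that mean, and black lines divide the groups. Col1a1 and Col1a2 are darkest red in trametinib 2 and control 3, Col4a5 is red in all 6 trametinib exposed tumors, and Col17a1 is red in the 6 tumors with high Krt14.

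The summed level of all 44 chains was 3117, 8899 and 23632 CPM in the control tumors, 18518, 39630 and 9200 CPM after trametinib, 4480, 8316 and 2442 CPM after cediranib and 6415, 3678 and 6322 CPM after the combination. The group means were 11883 ± 10578 CPM (SD, n = 3) for control, 22449 ± 15591 CPM for trametinib, 5079 ± 2983 CPM for cediranib and 5472 ± 1554 CPM for the combination. The spread between tumors of a group was as large as the distance between most of the group means, and the trametinib tumors lay above the cediranib and the combination tumors without overlap. Collagen transcripts made up 0.248% to 3.59% of the counts of a library. Col1a1 alone held 37.9% to 78.5% of the collagen CPM of a tumor, and Col1a1, Col1a2 and Col3a1 together held 64.2% to 92.9%.

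Type I collagen, the main fibril of skin, tendon and bone, consists of the chains Col1a1 and Col1a2. Col1a1 (GRCm38 chromosome 11, 94936224 to 94953042, plus strand) stood at 1501, 5749 and 16127 CPM in the control tumors, at 13149, 31105 and 5794 CPM after trametinib, at 2465, 5144 and 1170 CPM after cediranib and at 4235, 1395 and 3944 CPM after the combination. Col1a2 (chromosome 6, 4504814 to 4541544, plus strand) stood at 371, 1187 and 3717 CPM in control, at 1912, 4158 and 1066 CPM after trametinib, at 586, 1097 and 300 CPM after cediranib and at 406, 230 and 319 CPM after the combination. Both chains were highest in trametinib 2 and control 3, and in both the combination tumors lay below the trametinib tumors without overlap.

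For Col1a1 the log2 fold change was 1.10 (SE 0.81, FDR 0.505) for trametinib against control, -1.41 (SE 0.82, FDR 0.999) for cediranib against control and -2.39 (SE 0.84, FDR 0.171) for combination against trametinib (edgeR, Benjamini-Hochberg). For Col1a2 the value of combination against trametinib was -2.90 (SE 0.76, FDR 0.0813) and that of combination against control was -2.47 (SE 0.75, FDR 0.0567). By this test neither chain was called. The likelihood ratio test called Col1a2 in both of these combination comparisons, with an FDR of 0.00498 against trametinib and 0.0101 against control, as did DESeq2 with 0.0125 and 0.0216. Control 3 held much of the control level, since without it the log2 fold change of Col1a1 for cediranib against control was -0.31 in place of -1.41. Without control 1 the value of Col1a2 for combination against control was -2.95 with an FDR of 0.0182, a call by the quasi-likelihood test of edgeR with Benjamini-Hochberg adjustment. Without control 3, which had 3717 CPM, Col1a2 was not called there by that test. The 3 tumors outside the combination group with epidermal markers had 371, 586 and 300 CPM of Col1a2, the second of them above the range of 230 to 406 CPM after the combination.

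**Figure D2:**
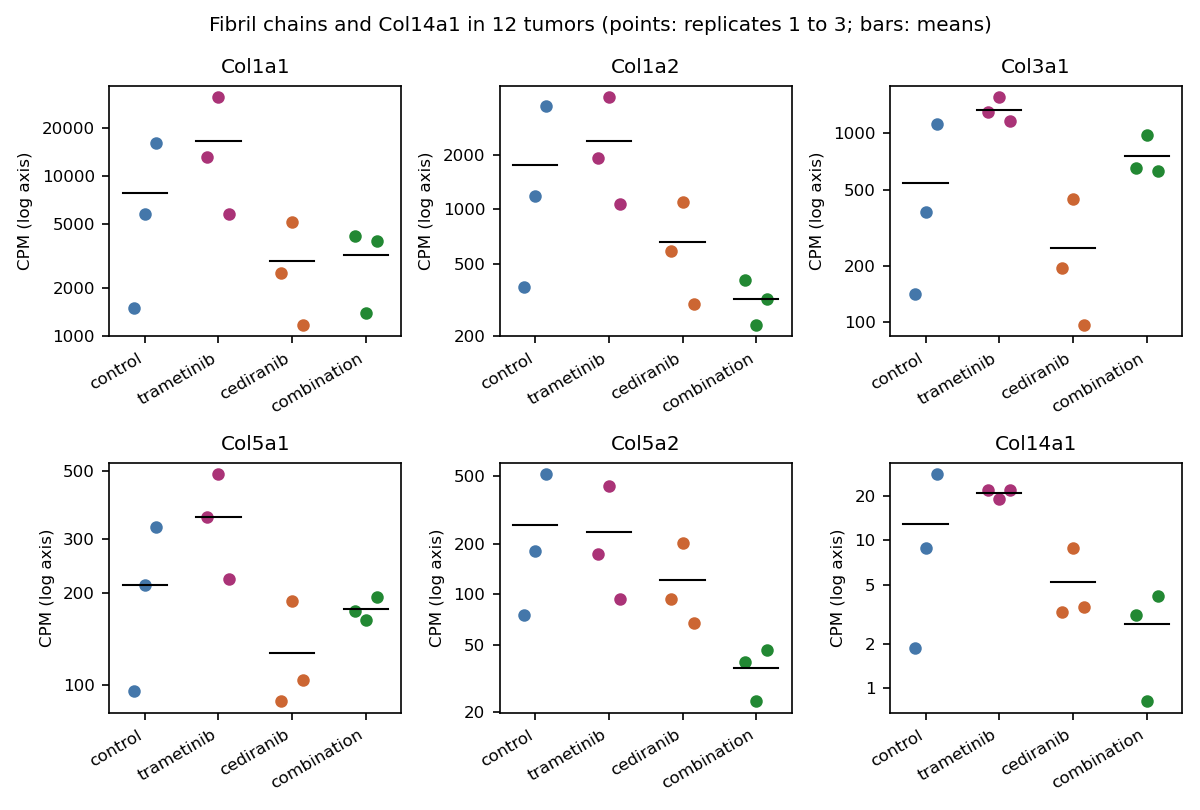
CPM on a log axis of 5 fibrillar chains and Col14a1 (panels) in the 4 groups (horizontal axis). Points are the 3 tumors of a group in order of replicate and bars are group means. The combination tumors lie below the trametinib tumors without overlap for all 6 chains, and for Col5a2 they lie below all other 9 tumors.

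The balance of the 2 type I chains differed between tumors with and without trametinib. Per length, the ratio of Col1a1 to Col1a2 was 7.66, 9.17 and 8.22 in control tumors and 7.96, 8.88 and 7.37 after cediranib. It was 13.0, 14.2 and 10.3 after trametinib and 19.8, 11.5 and 23.4 after the combination. All 6 trametinib exposed tumors lay above all 6 tumors without it, with means of 12.5 ± 1.99 and 18.2 ± 6.09 (SD, n = 3) against 8.35 ± 0.764 for control and 8.07 ± 0.760 for cediranib. Since the probes capture each transcript with its own efficiency, the ratio can be compared between tumors and does not give the stoichiometry of the chains. This ratio was not tested, as its choice followed a look at the values.

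Col3a1, the chain of type III collagen that accompanies type I in skin and vessel walls, stood at 141, 386 and 1120 CPM in control, at 1296, 1549 and 1161 CPM after trametinib, at 195, 450 and 97.2 CPM after cediranib and at 654, 978 and 634 CPM after the combination. The trametinib tumors lay above the control tumors and the combination tumors above the cediranib tumors, in each case without overlap. The share of all genes tested for which all 3 tumors of the treated group lay higher was 12.9% for trametinib against control and 14.1% for combination against cediranib. The log2 fold changes were 1.28 (SE 0.63, FDR 0.279) and 1.61 (SE 0.64, FDR 0.153), neither of them called (edgeR, Benjamini-Hochberg). The control tumors ran from 141 to 1120 CPM, so that the first value depends on which of them are included. With the epidermal score in the model, the value of combination against cediranib was 2.77 with an FDR of 0.0103 and would be called. Relative to Col1a2 per length, Col3a1 was at 0.381 to 0.481 in control and at 0.410 to 0.520 after cediranib, at 0.858, 0.472 and 1.38 after trametinib and at 2.04, 5.396 and 2.52 after the combination.

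**Figure D3:**
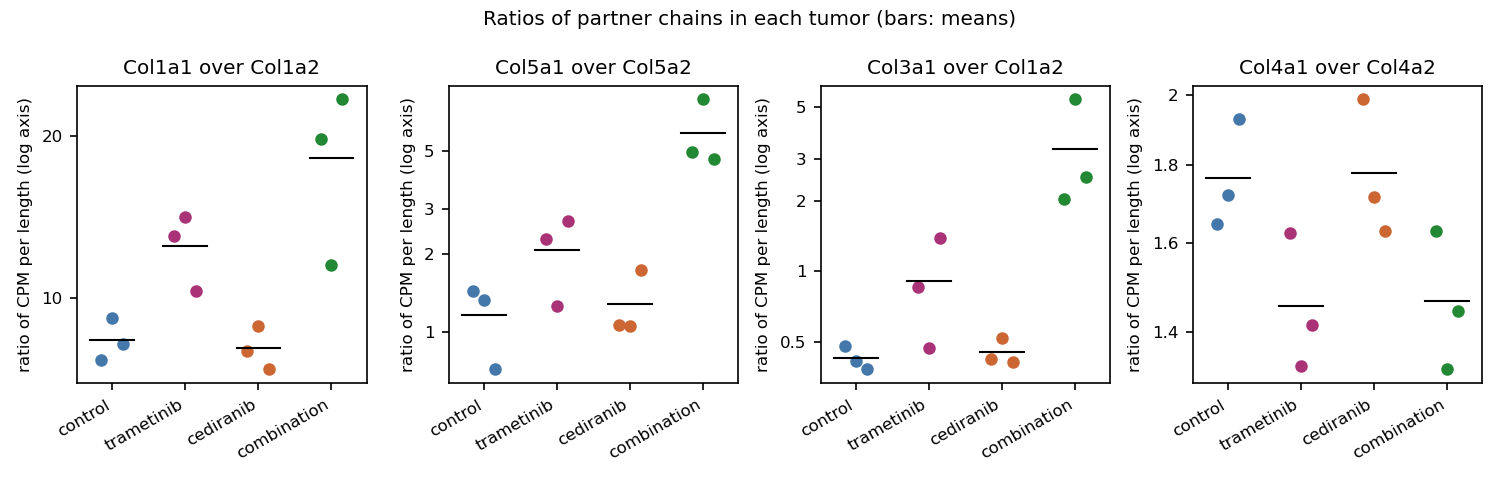
Ratio of partner chains, each as CPM per length, on a log axis for the 12 tumors by group. Points are the 3 tumors of a group in order of replicate and bars are group means. The ratio of Col1a1 to Col1a2 is above 10 in all 6 trametinib exposed tumors and below 10 in the other 6, while the ratio of Col4a1 to Col4a2 stays between 1.32 and 1.99.

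Type V collagen, which nucleates type I fibrils and limits their diameter, is built mainly from Col5a1 and Col5a2. Col5a2 (chromosome 1, 45374321 to 45503282, minus strand) stood at 75.1, 181 and 518 CPM in control, at 174, 439 and 93.7 CPM after trametinib, at 93.6, 202 and 67.5 CPM after cediranib and at 39.7, 23.2 and 46.7 CPM after the combination. Every combination tumor lay below every other tumor. In combination treated tumors compared to control Col5a2 fell by 2.82 on the log2 scale (SE 0.73, FDR 0.0318, edgeR with Benjamini-Hochberg adjustment), from a mean of 258 ± 231 to 36.5 ± 12.04 CPM (SD, n = 3). This call was lost without control 2 (FDR 0.0538), control 3 (0.137) or any of the 3 combination tumors (0.0743 to 0.106), and the log2 fold change was -1.81 without control 3. With the epidermal score in the model it was -0.86 with an FDR of 0.792 (edgeR, Benjamini-Hochberg). The 3 tumors outside the combination group with epidermal markers had 75.1, 93.6 and 67.5 CPM.

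Col5a1 did not follow its partner. It stood at 95.5, 212 and 329 CPM in control, at 353, 491 and 222 CPM after trametinib, at 88.1, 188 and 104 CPM after cediranib and at 175, 163 and 194 CPM after the combination. The log2 fold change of combination against control was -0.26 (SE 0.41, FDR 0.730, edgeR with Benjamini-Hochberg adjustment). Per length, Col5a1 stood at 0.718 to 1.44 times Col5a2 in control tumors, at 1.26 to 2.68 times after trametinib, at 1.05 to 1.74 times after cediranib and at 4.97, 7.94 and 4.69 times after the combination. The 3 combination tumors lay above the other 9 in this ratio. Col5a3, the third type V chain, ranged from 9.69 to 31.4 CPM, and its log2 fold changes lay between -0.55 and 0.62 in the 5 comparisons between groups.

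The other tested fibrillar chains were far less abundant. Col11a1, which belongs to the type XI fibrils of cartilage and also joins type V in soft tissue, ranged from 0.999 to 21.4 CPM and was highest in trametinib 2, control 3 and control 2. Col27a1 ranged from 1.34 to 12.6 CPM. Col11a2 reached 2.21 CPM and Col2a1, the chain of cartilage fibrils, reached 2.53 CPM, with values near the limit of 3 counts in many tumors. Of the cartilage markers listed only Sox9 was tested, which lay at 26.9 to 165 CPM, and Acan and Comp were at 0.371 CPM or less. None of these 4 chains was called by edgeR with Benjamini-Hochberg adjustment.

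Col4a1 and Col4a2, the partner chains of the network that underlies nearly every endothelium and epithelium, lie head to head on chromosome 8 with annotated starts 21 bases apart. Because they are transcribed from 1 shared region on opposite strands and their levels moved together, a stretch of 30 bases around the CCAAT motif of each is shown. CCAAT or its reverse complement is in capitals. As the genes overlap at their starts, each stretch lies within the annotated span of the partner gene. The sequences come from RefSeq (GRCm38.p6) and read 5′ to 3′ on the strand of the gene.
Col4a1 (chr8:11312954-11312983, minus strand): tgcttgcccgggATTGGcgagccaaggggc
Col4a2 (chr8:11312761-11312790, plus strand): ccgaggagctccCCAATttgttggcgctgc
The motif began 145 bases before the start of Col4a1 and 32 bases before the start of Col4a2. CCAAT on either strand was found in the 250 bases before the start of 33.8% of all 32851 promoters and in 12 of the 35 collagen promoters that had an entry (34.3%).

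Col4a1 stood at 112, 97.9 and 222 CPM in control, at 96.0, 56.7 and 43.8 CPM after trametinib, at 116, 162 and 89.3 CPM after cediranib and at 57.0, 64.2 and 66.2 CPM after the combination. Col4a2 stood at 60.04, 50.5 and 102 CPM in control, at 52.5, 37.8 and 27.5 CPM after trametinib, at 52.0, 83.8 and 48.6 CPM after cediranib and at 31.0, 43.0 and 40.7 CPM after the combination. For Col4a1 both trametinib exposed groups lay below the control tumors without overlap. Col4a1 differed from control by -1.20 (SE 0.34, FDR 0.0461) with the combination, which met the FDR and not the minimum fold, and by -1.13 (SE 0.34, FDR 0.0745) with trametinib (edgeR, Benjamini-Hochberg). The values of Col4a2 were -0.89 (SE 0.31, FDR 0.0866) and -0.85 (SE 0.31, FDR 0.134). Without trametinib 1 the value of Col4a1 for trametinib was -1.52 (FDR 0.0377, edgeR with Benjamini-Hochberg adjustment) and would be called. Control 3, at 222 CPM, held much of the control level, and without it Col4a1 was called in neither comparison. For cediranib against control the log2 fold changes were -0.23 and -0.20.

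The ratio of the 2 chains per length stayed between 1.32 and 1.99, a 1.502-fold range, while Col4a1 itself varied 5.06-fold. Beside these values, the summed level of the 10 endothelial markers was 233 to 477 CPM in control, 107 to 168 CPM after trametinib, 144 to 372 CPM after cediranib and 77.5 to 132 CPM after the combination. Of the 9 endothelial markers tested 4 were called lower with trametinib, 5 with the combination and 0 with cediranib, each against control, and 3 in combination against cediranib. Of all genes tested 1.43%, 1.71%, 0% and 1.16% were called lower in these comparisons. The part of endothelial content in the level of type IV chains and of Col18a1 was not tested.

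Col4a5, a type IV chain that assembles with other minor chains in kidney, smooth muscle and skin, moved the opposite way. Its gene lies on chromosome X (141475385 to 141689234, plus strand). Since this chain was called in 3 of the comparisons, the part of its RefSeq promoter outside annotated exons is shown in GRCm38.p6, with the CCAAT motif in capitals.
Col4a5 (chrX:141475169-141475384, plus strand): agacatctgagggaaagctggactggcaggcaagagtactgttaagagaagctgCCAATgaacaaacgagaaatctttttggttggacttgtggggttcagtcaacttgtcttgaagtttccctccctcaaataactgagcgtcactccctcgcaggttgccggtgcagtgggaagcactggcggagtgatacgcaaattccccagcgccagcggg
No TATAAA was found in the 250 bases before its start, a motif present in 12.4% of all promoters.

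Col4a5 stood at 6.22, 1.11 and 5.66 CPM in control, at 23.8, 18.7 and 18.7 CPM after trametinib, at 1.798, 2.36 and 4.98 CPM after cediranib and at 24.3, 28.6 and 19.2 CPM after the combination. All 6 trametinib exposed tumors lay above all 6 others. Col4a5 rose by 2.23 on the log2 scale with trametinib against control (SE 0.48, FDR 0.0185), by 2.46 with the combination against control (SE 0.49, FDR 0.0107) and by 2.97 with the combination against cediranib (SE 0.50, FDR 0.00608), all by edgeR with Benjamini-Hochberg adjustment. The first of these calls was lost without trametinib 1 (log2 fold change 2.10, FDR 0.0583), and the second with the epidermal score in the model (1.84, FDR 0.284). The third comparison shares no library with the first, and its call was kept in all 15 alternatives tried, with log2 fold changes from 2.67 to 3.53. The 3 tumors with epidermal markers that received no trametinib had 6.22, 1.798 and 4.98 CPM.

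In combination compared to trametinib treated tumors Col4a5 differed by 0.24 (SE 0.45, FDR 0.829, edgeR with Benjamini-Hochberg adjustment). Per length, Col4a5 stood at 0.0127 to 0.0619 times Col4a1 in the 6 tumors without trametinib and at 0.275 to 0.495 times in the 6 with it. Col4a6, which lies next to it in the opposite orientation with starts 1343 bases apart, had 6 counts over all 12 libraries and was not tested. Col4a3 had 3 counts and Col4a4 had 12 counts in total.

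**Figure D4:**
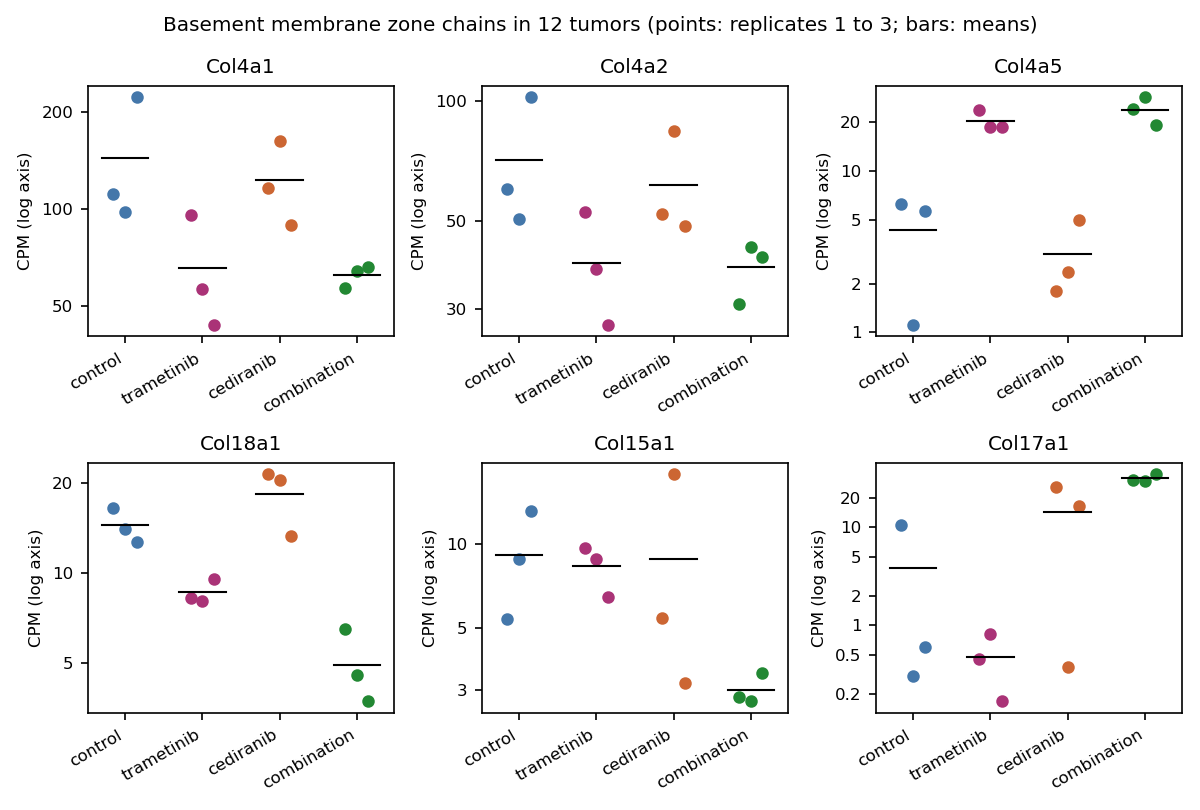
CPM on a log axis of 6 chains of the basement membrane zone (panels) in the 4 groups (horizontal axis). Points are the 3 tumors of a group in order of replicate and bars are group means. Col4a5 is above 18 CPM in all 6 trametinib exposed tumors and below 7 CPM in the other 6, Col18a1 is lowest in the 3 combination tumors, and Col17a1 is above 10 CPM in control 1, cediranib 1, cediranib 3 and the combination tumors alone.

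The multiplexins Col15a1 and Col18a1 carry endostatin-type domains at their ends and are found in the walls of vessels. Col18a1 (chromosome 10, 77052178 to 77166548, minus strand) was called in both comparisons of the combination with a group that received no trametinib, and the part of its RefSeq promoter outside annotated exons (GRCm38.p6) is therefore shown. Capitals mark CCAAT and GGGCGG, a binding motif of Sp1-like factors, on either strand.
Col18a1 (chr10:77166549-77166780, minus strand): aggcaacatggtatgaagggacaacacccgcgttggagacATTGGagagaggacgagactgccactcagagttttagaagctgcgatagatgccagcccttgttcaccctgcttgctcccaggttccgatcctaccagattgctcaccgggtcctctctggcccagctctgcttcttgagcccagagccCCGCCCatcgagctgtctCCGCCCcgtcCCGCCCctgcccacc
GGGCGG was found in the 250 bases before the start of 21 of 35 collagen promoters (60%) and of 32.7% of all promoters.

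Col18a1 stood at 16.5, 14.1 and 12.7 CPM in control, at 8.26, 8.03 and 9.54 CPM after trametinib, at 21.5, 20.4 and 13.3 CPM after cediranib and at 6.46, 4.54 and 3.71 CPM after the combination. The combination tumors lay below the trametinib tumors, and these below the control and cediranib tumors, without overlap. Col18a1 fell by 1.56 on the log2 scale with the combination against control (SE 0.25, FDR 0.00412) and by 1.91 against cediranib (SE 0.25, FDR 0.00156), by edgeR with Benjamini-Hochberg adjustment. The differences of trametinib against control, -0.74 (SE 0.24, FDR 0.0915), and of combination against trametinib, -0.81 (SE 0.25, FDR 0.122), were not called by edgeR with Benjamini-Hochberg adjustment. As the value against control lies close to the minimum of 1.5, the call was lost without control 1 (-1.46) or combination 3 (-1.40), where the FDR stayed at 0.0105 and 0.0157. The call against cediranib was kept in all 15 alternatives. The 3 tumors outside the combination group with epidermal markers had 16.5, 21.5 and 13.3 CPM. Slc19a1 overlaps the gene on the opposite strand, and whether the counts were made by strand is not stated.

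Col15a1 stood at 5.37, 8.82 and 13.1 CPM in control, at 9.62, 8.85 and 6.45 CPM after trametinib, at 5.395, 17.8 and 3.16 CPM after cediranib and at 2.83, 2.72 and 3.43 CPM after the combination. The combination tumors lay below the control and trametinib tumors without overlap, and their range overlapped that of the cediranib tumors. The log2 fold change of combination against control was -1.60 (SE 0.54, FDR 0.0822) and was not called by edgeR with Benjamini-Hochberg adjustment. The Wald test of DESeq2 called it, with a log2 fold change of -1.59 and an FDR of 0.0241. Against cediranib the value was -1.55 (FDR 0.106) with all tumors and -1.94 (FDR 0.0435), a call, without cediranib 3 (edgeR, Benjamini-Hochberg).

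Among the FACIT chains 3 of 9 were tested, and 0 were called by the quasi-likelihood test. Col12a1, which binds type I fibrils in tissues under load and was the most abundant FACIT chain, stood at 168, 196 and 521 CPM in control, at 293, 477 and 64.2 CPM after trametinib, at 197, 237 and 127 CPM after cediranib and at 111, 86.0 and 111 CPM after the combination. The combination tumors lay below the control tumors, with a log2 fold change of -1.52 (SE 0.59, FDR 0.119, edgeR with Benjamini-Hochberg adjustment). Control 3, at 521 CPM, held much of the control level, so that the size of this value depends on it.

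Col14a1, which regulates fibril growth in skin and tendon, stood at 1.87, 8.82 and 28.1 CPM in control, at 21.7, 18.9 and 21.8 CPM after trametinib, at 3.30, 8.89 and 3.54 CPM after cediranib and at 3.13, 0.817 and 4.18 CPM after the combination. The 3 trametinib tumors lay close together, while the control tumors spread over a 15-fold range. The log2 fold change of combination against trametinib was -2.94 (SE 0.80, FDR 0.0882) and that of trametinib against control was 0.69 (SE 0.72, FDR 0.662), neither called by edgeR with Benjamini-Hochberg adjustment. Both the likelihood ratio test (FDR 0.0106) and the Wald test of DESeq2 (FDR 0.0221) called the former. Against control the combination differed by -2.25 (FDR 0.0928), and by -2.77 (FDR 0.0206), a call, without control 1 (edgeR, Benjamini-Hochberg). Control 3, at 28.1 CPM, held much of the control level, and without it Col14a1 was not called. The level lay between 0.817 and 4.18 CPM in the 6 tumors with high Krt14 and between 8.82 and 28.1 CPM in the 6 others.

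Col16a1, a minor collagen found near fibrillin microfibrils and skin fibrils, stood at 7.24, 18.1 and 27.2 CPM in control, at 41.1, 60.1 and 27.9 CPM after trametinib, at 6.99, 8.42 and 5.74 CPM after cediranib and at 10.9, 10.3 and 13.8 CPM after the combination. The trametinib tumors lay above all other tumors. The log2 fold changes were 1.297 (SE 0.39, FDR 0.0762) for trametinib against control, -1.31 (SE 0.41, FDR 0.999) for cediranib against control and -1.88 (SE 0.40, FDR 0.0517) for combination against trametinib, not called by the quasi-likelihood test of edgeR with Benjamini-Hochberg adjustment. The last was called by the likelihood ratio test (FDR 0.000956), by DESeq2 (0.000247), in a fit to these 2 groups alone (0.0135) and with scaling by library totals (0.0462). Without control 3 the first of these was 1.76 with an FDR of 0.0381 and would be called.

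Of the beaded filament chains, which form type VI collagen microfibrils around cells, Col6a1, Col6a2 and Col6a3 were tested and 0 were called. Col6a1 stood at 34.7, 53.0 and 86.7 CPM in control, at 114, 105 and 115 CPM after trametinib, at 30.1, 48.1 and 26.7 CPM after cediranib and at 55.8, 61.8 and 83.4 CPM after the combination. Col6a2 stood at 51.1, 116 and 178 CPM in control, at 173, 208 and 179 CPM after trametinib, at 45.8, 74.5 and 46.0 CPM after cediranib and at 76.2, 86.2 and 142 CPM after the combination. For both chains the order of the group means was trametinib, then the combination and control, then cediranib, and control overlapped the combination.

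The log2 fold change of Col6a1 was 0.94 (SE 0.30, FDR 0.0903) for trametinib against control and 0.94 (SE 0.30, FDR 0.0824) for combination against cediranib, under the minimum fold and not called by edgeR with Benjamini-Hochberg adjustment. The values of Col6a2 were 0.70 and 0.87. Per length, the ratio of Col6a1 to Col6a2, which lie near each other on chromosome 10, stayed between 0.869 and 1.39 in the 12 tumors. Col6a3, the third and longest partner, was steadier, at 373, 439 and 414 CPM in control, 585, 598 and 207 CPM after trametinib, 495, 437 and 232 CPM after cediranib and 386, 373 and 454 CPM after the combination. Its log2 fold changes lay between -0.20 and 0.18 in the 5 comparisons.

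Short chain network collagens form hexagonal lattices, type VIII beneath endothelium and around vessels and type X in growth plate cartilage. Col8a1 stood at 52.5, 115 and 129 CPM in control, at 158, 190 and 117 CPM after trametinib, at 17.3, 77.6 and 53.1 CPM after cediranib and at 68.9, 52.1 and 157 CPM after the combination. Its partner Col8a2 was scarce, at 0.0852, 6.49 and 7.17 CPM in control, 1.72, 8.73 and 1.84 CPM after trametinib, 0.599, 1.51 and 0.0957 CPM after cediranib and 0.101, 0 and 0.743 CPM after the combination. For Col8a2 several values lay under the limit that a count of 0 allows, so that no fold change is given. The fold changes of Col8a1 on the log2 scale lay between -1.002 and 0.91 and were not called.

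Col10a1 had 0.758 ± 0.545 CPM in control, 0.304 ± 0.198 CPM after trametinib, 0.985 ± 0.975 CPM after cediranib and 2.69 ± 1.65 CPM after the combination (SD, n = 3). Its gene overlaps Nt5dc1 on the opposite strand, so that reads of the latter may be included. The trametinib tumors held 4, 4 and 1 counts, so that no fold change against them is given. The quasi-likelihood test of edgeR did not call combination against trametinib (FDR 0.0985, Benjamini-Hochberg), while the likelihood ratio test (0.0181) and DESeq2 (0.0212) did.

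Col17a1, the only transmembrane chain tested, anchors basal keratinocytes in hemidesmosomes. It stood at 10.5, 0.304 and 0.606 CPM in control, at 0.454, 0.815 and 0.167 CPM after trametinib, at 25.7, 0.378 and 16.4 CPM after cediranib and at 30.4, 29.7 and 35.0 CPM after the combination. The 6 tumors at or above 10.5 CPM were the 6 with Krt14 at or above 266 CPM. The log2 fold change of combination against trametinib was 6.09 (SE 1.44, FDR 0.0666) and was not called by the quasi-likelihood test of edgeR with Benjamini-Hochberg adjustment, while the likelihood ratio test (0.00179) and DESeq2 (0.00122) called it. Its size is imprecise, as the trametinib tumors held 5, 7 and 2 counts. Without control 1, the control tumor with the epidermal markers, the value of combination against control was 6.08 (FDR 0.0178) in place of 3.02 (FDR 0.111), and rested on 3 and 6 counts in the other control tumors (edgeR, Benjamini-Hochberg).

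Col7a1, the chain of the anchoring fibrils that tie the epidermal basement membrane to the dermis, did not share this pattern. It ranged from 2.09 to 25.8 CPM, with group means of 10.3 ± 1.98 CPM in control, 13.3 ± 11.9 CPM after trametinib, 12.9 ± 0.553 CPM after cediranib and 10.5 ± 5.18 CPM after the combination (SD, n = 3). Its log2 fold changes lay between -0.33 and 0.35.

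The remaining 18 chains had too few counts to be tested. Their totals over all 12 libraries ran from 1 count, for Col9a1 and Col6a4, to 74 counts, for Col28a1, and none exceeded 1.45 CPM in any tumor. They were Col24a1 among the fibrillar chains, Col4a3, Col4a4 and Col4a6 of the basement membrane, the FACIT chains Col9a1, Col9a2, Col9a3, Col19a1, Col20a1 and Col22a1, the beaded filament chains Col6a4, Col6a5 and Col6a6, the transmembrane chains Col13a1, Col23a1 and Col25a1, and Col26a1 and Col28a1. At this depth many of them were at or near the limit of detection, while Col24a1 reached 16 counts in trametinib 1 and Col28a1 reached 12 counts in control 3 and trametinib 2.

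Compared per length, the order of the group mean levels in control tumors began with Col1a1 at 1187 ± 1146 CPM per kb (SD, n = 3), Col1a2 at 141 ± 140 and Col3a1 at 55.9 ± 51.9. Col6a3 followed at 34.2 ± 2.79 CPM per kb, then Col5a2 at 26.9 ± 24.1, Col5a1 at 25.0 ± 13.8, Col12a1 at 19.4 ± 12.9 and Col4a1 at 19.2 ± 9.08. From Col1a2 downward neighbors in this order differed by less than the larger of their SDs. In combination treated tumors the order was Col1a1 at 486 ± 238 CPM per kb, Col3a1 at 77.0 ± 19.7, Col6a3 at 33.8 ± 3.67, Col1a2 at 25.6 ± 7.10 and Col5a1 at 20.9 ± 1.82, with Col5a2 at 3.81 ± 1.25. Each transcript has its own probes, which bears on any order across genes.

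Trametinib without or with cediranib was compared in trametinib against control and in combination against cediranib, which share no library. The log2 fold changes were positive for 13 and 15 of the 26 chains, where 50.6% and 50.4% of all genes tested were, with medians of 0.03 and 0.08 beside medians of 0.01 and 0.00 over all genes. For trametinib against control the direction of the median changed with the setting. It was -0.48 with a fibroblast score in the model, -0.40 without trametinib 2 and 0.37 without control 3. The groups lay apart with the treated tumors higher for 4 and 6 chains and lower for 2 and 5, where 12.9% and 14.1% of all genes tested lay higher and 12.9% and 14.3% lower.

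Cediranib without or with trametinib was compared in cediranib against control and in combination against trametinib, which also share no library. The log2 fold changes were negative for 22 of 26 chains in each, where 49.6% and 48.8% of all genes tested had a positive one, and 20 of 26 (76.9%) were negative in both, against 30.3% of all genes tested. Several chains peaked in the same tumors, so that the chains are not separate observations of a treatment. Tumors with high Krt14 were also more frequent on the cediranib side of both comparisons. The medians were -0.74 and -0.78, where those of all genes were 0.00 and -0.01. In combination against trametinib 12 chains lay lower in all 3 combination tumors and 2 higher (11.8% and 12.4% of all genes tested). In cediranib against control 1 chain lay lower and 1 higher (3.45% and 4.31%), so that the control and cediranib tumors overlapped for 24 chains. With the epidermal score in the model, 10 chains were negative in combination against trametinib (median 0.59) and 19 in cediranib against control (median -0.15). The epidermal score separated the combination from the trametinib tumors, so that skin content and treatment cannot be told apart there. With a fibroblast score in the model the counts were 14 and 13, with medians of -0.06 and 0.01. The fibroblast score was higher in every trametinib tumor (5.89 to 5.98) than in any other tumor (at most 5.72), so that it too cannot be told apart from that group. Without control 3 the median for cediranib against control was -0.24. In combination against control 18 of 26 log2 fold changes were negative, with a median of -0.71, where 50.1% of all genes tested had a positive one, and 6 chains lay lower and 2 higher without overlap (15.7% and 15.6% of all genes tested). With the epidermal score in the model 11 were negative there, with a median of 0.28. For the interaction 13 of 26 values were negative, and 49.7% of all genes tested had a positive value.

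**Figure D5:**
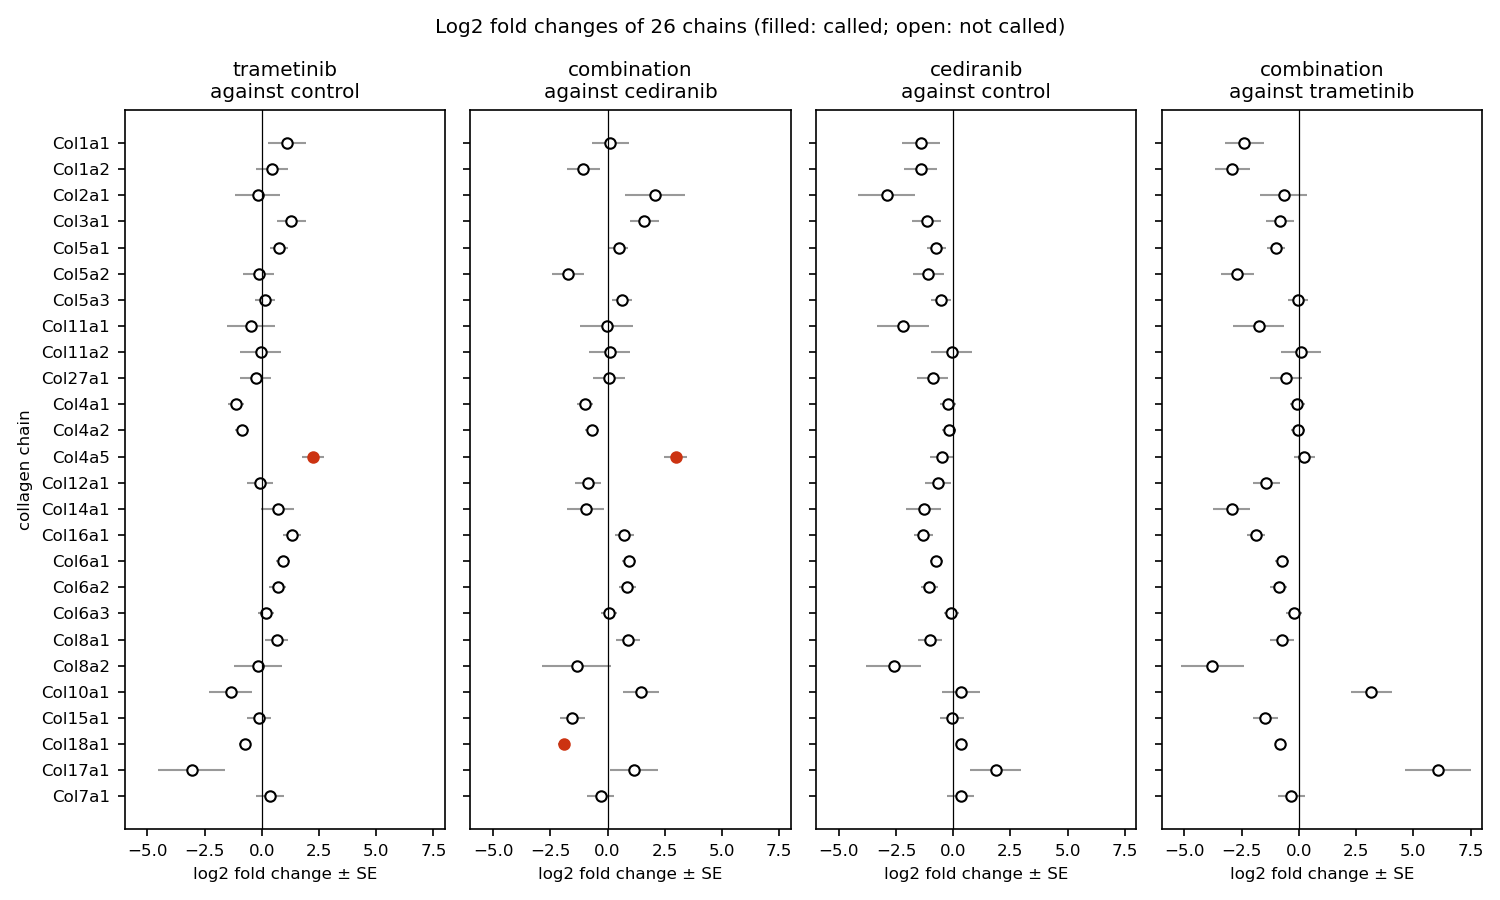
Log2 fold changes (horizontal axis) with standard errors for the 26 tested chains (vertical axis) in 4 comparisons. Filled points were called (FDR 0.05 and absolute log2 fold change of at least 1.5, edgeR quasi-likelihood test) and open points were not. Col4a5 is called in both trametinib comparisons and Col18a1 in combination against cediranib, and in each of the 2 cediranib comparisons 22 of 26 points lie left of 0.

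Collagens are processed by a chain of enzymes and chaperones before they form fibrils. Of 35 such genes listed 31 were tested, and the 1 that was called by the quasi-likelihood test was Lox, the oxidase that begins the cross-linking of fibrils, in combination against control, where 3.61% of all genes were called. Lox stood at 12.01, 45.3 and 122 CPM in control, at 57.0, 163 and 36.4 CPM after trametinib, at 9.79, 49.6 and 6.89 CPM after cediranib and at 3.74, 6.26 and 5.66 CPM after the combination. Against control it fell by 3.50 in combination treated tumors on the log2 scale (SE 0.94, FDR 0.0376, edgeR with Benjamini-Hochberg adjustment), with no overlap between these groups. Lox lay at 3.74 to 12.01 CPM in the 6 tumors with high Krt14 and at 36.4 to 163 CPM in the 6 others, and the part of skin in its difference was not tested. The median log2 fold changes of the 31 genes were 0.21 for trametinib, -0.22 for cediranib and -0.12 for the combination, each against control, and 0 of the 31 were called in the other comparisons.

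Cells bind collagen through a few integrins, discoidin domain receptors and endocytic receptors. Of 10 such genes 8 were tested, of which 1 was called in trametinib against control, 2 in combination against control and 1 in combination against cediranib, beside 2.4%, 3.61% and 2.45% of all genes. Itga10, an integrin subunit that binds collagen, stood at 5.62, 10.6 and 3.13 CPM in control, at 25.5, 46.0 and 21.9 CPM after trametinib, at 11.4, 6.72 and 3.06 CPM after cediranib and at 29.1, 33.7 and 82.9 CPM after the combination. As for Col4a5, all 6 trametinib exposed tumors lay above the 6 others. Itga10 rose with trametinib against control by 2.26 (SE 0.57, FDR 0.0358), with the combination against control by 2.91 (SE 0.57, FDR 0.0107) and with the combination against cediranib by 2.78 (SE 0.57, FDR 0.0142) on the log2 scale. Mrc2, a receptor that takes up collagen fragments, fell by 2.43 with the combination against control (SE 0.58, FDR 0.0238), all by edgeR with Benjamini-Hochberg adjustment. Mrc2 lay at 3.33 to 12.59 CPM in the 6 tumors with high Krt14 and at 12.64 to 50.3 CPM in the others, while the ranges of Itga10 in these sets overlapped, and the part of skin was not tested.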

How the data were processed

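The authors aligned reads to GRCm38 with STAR 2.7.1a (base calls by bcl2fastq 1.8.4) and deposited raw counts per gene from featureCounts 1.6.0, which were used as such. No source used here states the annotation release, the strandedness or what was done with multimapping reads. Groups were taken from sample titles and treatment labels, with 0 columns left over. Nothing in the labels says which mouse each tumor came from, so p-values measure the spread between these samples.

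Counts were filtered with filterByExpr (minimum count 10, minimum total 15), scaled with TMM and fitted with edgeR 4.0.16 in R 4.3.3, 12 libraries together. Each standard error was computed as the size of the log2 value over the root of its F statistic. The method was tested on simulated data. DESeq2 1.42.0 was an alternative. Per length means per kb of exon length in the table. Scores are mean log2 CPM (prior count 2) of marker genes.

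Named in full were Col1a1, Col1a2, Col14a1, every called chain, the most abundant chain of each type and partner chains, besides up to 3 called genes of the assembly and receptor lists. The chains, lists, ratios and tests were chosen with earlier results of these data known. Overlaps come from GENCODE M21 and promoters from RefSeq, with 35 of 44 chains matched.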

Additional observations from a re-analysis of the deposited data

How the results depend on the processing

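No call reversed its direction under any alternative. The number of collagen chains called moved by more than 1.5 times under these settings. Without the filter on low counts there were 2 for trametinib against control, 4 for cediranib against control, 12 for combination against control, 10 for combination against trametinib, 5 for combination against cediranib and 3 for the interaction, out of all 44 chains and so with chains outside the 26 counted too, while calls over all genes went from 466 to 1129 for combination against control and from 0 to 324 for cediranib against control. The log2 fold changes hardly moved there while the FDRs fell steeply. For Col11a1 in cediranib against control the FDR went from 0.999 to 8.6e-09 (edgeR) at log2 fold changes of -2.19 and -2.21. These counts are therefore given as a dependence on processing only and not as calls. For combination against control the likelihood ratio test called 7, DESeq2 5, the model with the epidermal score 0 and that with the fibroblast score 8. For combination against trametinib the likelihood ratio test called 6, DESeq2 6, a fit to these 2 groups alone 5 and scaling by library totals 1. For combination against cediranib the fibroblast score gave 7. The cause was not tested.

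The count of chains with a negative log2 fold change, added after seeing the data, was 11 for combination against control, 10 for combination against trametinib and 6 for the interaction with the epidermal score, and 13 for cediranib against control, 14 for combination against trametinib and 17 for combination against cediranib with the fibroblast score. Leaving out 1 tumor gave 1 (without combination 3) to 6 (without control 1) called chains for combination against control and 1 to 2 (without control 3) for trametinib against control, with 7 (without control 3 or trametinib 3) to 16 negative values in the latter.

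Of the 6 calls, Col18a1 against control fell under the minimum fold with library totals alone (-1.44). With the epidermal score it missed the FDR (FDR 0.0700, edgeR) at a log2 fold change of -1.53, in place of -1.56. Col4a5 with trametinib against control missed the FDR with the fibroblast score (FDR 0.0797, edgeR) at a log2 fold change of 2.47, in place of 2.23. DESeq2 size factors in place of TMM kept 6 of 6 calls.

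Nothing in the labels pairs tumors of the same replicate number. Deviations of same-numbered tumors from their group means correlated between -0.22 and 0.36, over 0.1 in 3 of 18 pairs, which cannot exclude a pairing. With the replicate block 5 of the 6 calls were kept, and Col5a2 for combination against control had a log2 fold change of -2.65 with an FDR of 0.0541 (edgeR). Depth limits the 18 chains not tested and Col2a1, Col8a2, Col10a1 and Col11a2, whose levels lay near the limit of 3 counts in several tumors.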
